A study of Homo sapiens with 33 samples.

Results

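Serpins are proteins that share 1 fold, in which an exposed loop serves as bait for a protease, and most of them trap that protease in a covalent complex. The genes described here are a chosen set of serpins, labelled as outside the plasminogen system although SERPINI1 inhibits tissue plasminogen activator. The secreted inhibitors are SERPINA1, SERPINA3, SERPING1 and SERPINI1, and the intracellular clade B inhibitors are SERPINB1, SERPINB6, SERPINB8 and SERPINB9. The members SERPINF1 and SERPINH1 inhibit no protease. The genes were picked by gene symbol and role, not by a threshold on these values, although earlier results of these data were known. They are 10 of the 58302 genes of the matrix, in which 25 other SERPIN genes are also listed. Of the 10 genes, 9 reached 100 CP20M (counts per 20000000 reads) in at least 1 of the 33 libraries and were tested. SERPINA3 did not, and SERPINI1 did so only through 1 palbociclib library of MSTO-211H.

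RNA-seq was done on 6 established cell lines. H2052, H2452, H28 and MSTO-211H are malignant pleural mesothelioma (MPM) lines sensitive to palbociclib, an inhibitor of the kinases CDK4 and CDK6. The resistant lines were MPP89, an MPM line whose RB1 gene is mutated, and MeT-5A, mesothelial cells that SV40 had immortalized. Cells were given 0.1% DMSO (14 libraries) or 1 µM palbociclib (14 libraries) for 9 or 10 days, and DMSO and palbociclib libraries of 1 experiment form a pair. In 4 washout libraries, 1 per sensitive line, cells were left for 48 h without drug after 10 days of palbociclib. MeT-5A also had 1 untreated library. H2452, H28 and MSTO-211H had 3 pairs, H2052 and MPP89 had 2, and MeT-5A had 1. The mesothelial keratins KRT8 and KRT18 were at 1497 CP20M or more in all 33 libraries, but the other 8 mesothelial markers examined were low in some libraries. MSLN, the gene of mesothelin, was as low as 1 CP20M and KRT7 as low as 13, while WT1, CALB2, UPK3B, KRT19 and PDPN were at 0 in 1 to 10 libraries and KRT5 was at most at 22. CD3E was at 0 in all libraries, PTPRC was at most at 42 CP20M, and the 5 hepatocyte markers were at most at 32. Of the other leukocyte markers, ITGAM was at most at 82 CP20M, NKG7 at 17, LYZ at 8 and MS4A1 at 2. CD14 reached 1130 CP20M in H2452 and was at 108 to 121 in MPP89 and MeT-5A.

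SERPINA1, or alpha-1 antitrypsin, and SERPINA3, or alpha-1 antichymotrypsin, are acute phase proteins that restrain neutrophil elastase and cathepsin G. SERPING1 is the C1 inhibitor, which blocks the C1r and C1s proteases that start the classical complement pathway, and plasma kallikrein. SERPINI1, or neuroserpin, inhibits tissue plasminogen activator (PLAT) and is best known from neurons. SERPINB1 protects cells from neutrophil proteases, SERPINB6 inhibits cathepsin G and trypsin-like proteases, SERPINB8 inhibits furin, and SERPINB9 inhibits granzyme B, the protease by which cytotoxic lymphocytes kill. SERPINF1, or PEDF, is an anti-angiogenic factor, and SERPINH1, or HSP47, is a collagen chaperone of the endoplasmic reticulum under heat shock control.

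Promoters of genes that the results turn on are shown, where a window was found, to place the motifs searched in them. RefSeq start sites of GRCh38.p14 were found for 8 of the 10 genes, in 13 windows of 300 bases. The windows run from 250 bases before the start to 50 after it. SERPING1 and SERPINF1 had no window, so they were not searched. The motifs were GAS (TTCNNNGAA, read by STAT factors), an ISRE core (GAAANNGAA, read by interferon regulatory factors) and an HSE core (GAANNTTC, read by heat shock factors), searched on both strands. GAS was found in 7.66% of all 35116 promoters, the ISRE core in 8.11% and the HSE core in 6.77%. SERPINH1 held an HSE core that began at position -71, counted from its first start site, and SERPINB1 and SERPINB8 held a GAS at -208 and -231 from theirs. The other members with a window held none of the 3 motifs, which says only that these letters are not in it. GC content was 68.7% in the SERPINH1 window, 65.7% in that of SERPINB1, 68.7% in the SERPINB6 window that is printed and 64% in that of SERPINI1, against a median of 58.7% over all promoters. The other 3 SERPINB6 windows were at 47.7%, 75.7% and 76.7%. The windows follow, 5′ to 3′ on the strand of the gene, with motif matches in capitals. SERPINH1 is from chr11:75562003-75562302 (plus strand), SERPINB1 from chr6:2841814-2842113 (minus), SERPINB6 from chr6:2971518-2971817 (minus) and SERPINI1 from chr3:167735471-167735770 (plus).
SERPINH1: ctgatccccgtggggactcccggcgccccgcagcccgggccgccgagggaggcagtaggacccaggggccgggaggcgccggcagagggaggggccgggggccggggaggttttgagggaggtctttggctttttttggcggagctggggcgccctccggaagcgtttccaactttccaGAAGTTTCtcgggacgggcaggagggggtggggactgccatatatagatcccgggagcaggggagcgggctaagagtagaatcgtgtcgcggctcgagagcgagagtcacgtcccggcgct
SERPINB1: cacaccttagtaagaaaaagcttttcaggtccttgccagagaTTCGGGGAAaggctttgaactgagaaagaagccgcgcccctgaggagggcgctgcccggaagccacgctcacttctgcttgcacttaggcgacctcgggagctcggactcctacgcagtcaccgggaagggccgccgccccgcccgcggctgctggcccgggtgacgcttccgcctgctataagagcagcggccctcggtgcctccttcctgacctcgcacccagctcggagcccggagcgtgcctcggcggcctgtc
SERPINB6: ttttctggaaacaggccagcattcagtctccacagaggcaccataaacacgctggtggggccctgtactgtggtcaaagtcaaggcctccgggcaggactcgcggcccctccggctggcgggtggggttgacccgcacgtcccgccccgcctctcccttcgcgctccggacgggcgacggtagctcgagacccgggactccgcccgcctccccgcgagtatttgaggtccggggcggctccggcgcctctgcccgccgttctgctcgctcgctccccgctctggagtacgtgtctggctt
SERPINI1: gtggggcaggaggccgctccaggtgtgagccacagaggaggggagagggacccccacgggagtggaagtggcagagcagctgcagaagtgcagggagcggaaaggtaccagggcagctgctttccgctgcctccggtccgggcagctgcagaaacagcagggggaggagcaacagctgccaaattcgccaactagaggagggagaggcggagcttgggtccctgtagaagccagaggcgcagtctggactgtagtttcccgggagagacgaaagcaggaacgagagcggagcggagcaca

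The first question was which members the lines express without palbociclib. Levels of different genes were compared only per kb of exon, over the DMSO means of the 6 lines. SERPINH1 had the highest mean of the lines, at 808 CP20M per kb. It was followed by SERPINB1 (148 CP20M per kb), SERPINB9 (122), SERPINB6 (103), SERPING1 (93.1) and SERPINB8 (84.9). SERPINF1 (24.4 CP20M per kb), SERPINA1 (15.4), SERPINI1 (7.81) and SERPINA3 (0.983) were low. The means of SERPINB9 and SERPING1 rest on few lines, since their lowest lines were at 0.161 and 0.553 CP20M per kb and their highest at 512 and 440. Levels differed among the lines for 7 of the 9 tested members (limma F test on DMSO libraries, FDR under 0.05). This is close to the background, as 95.6% of all tested genes differed.

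**Figure D1:**
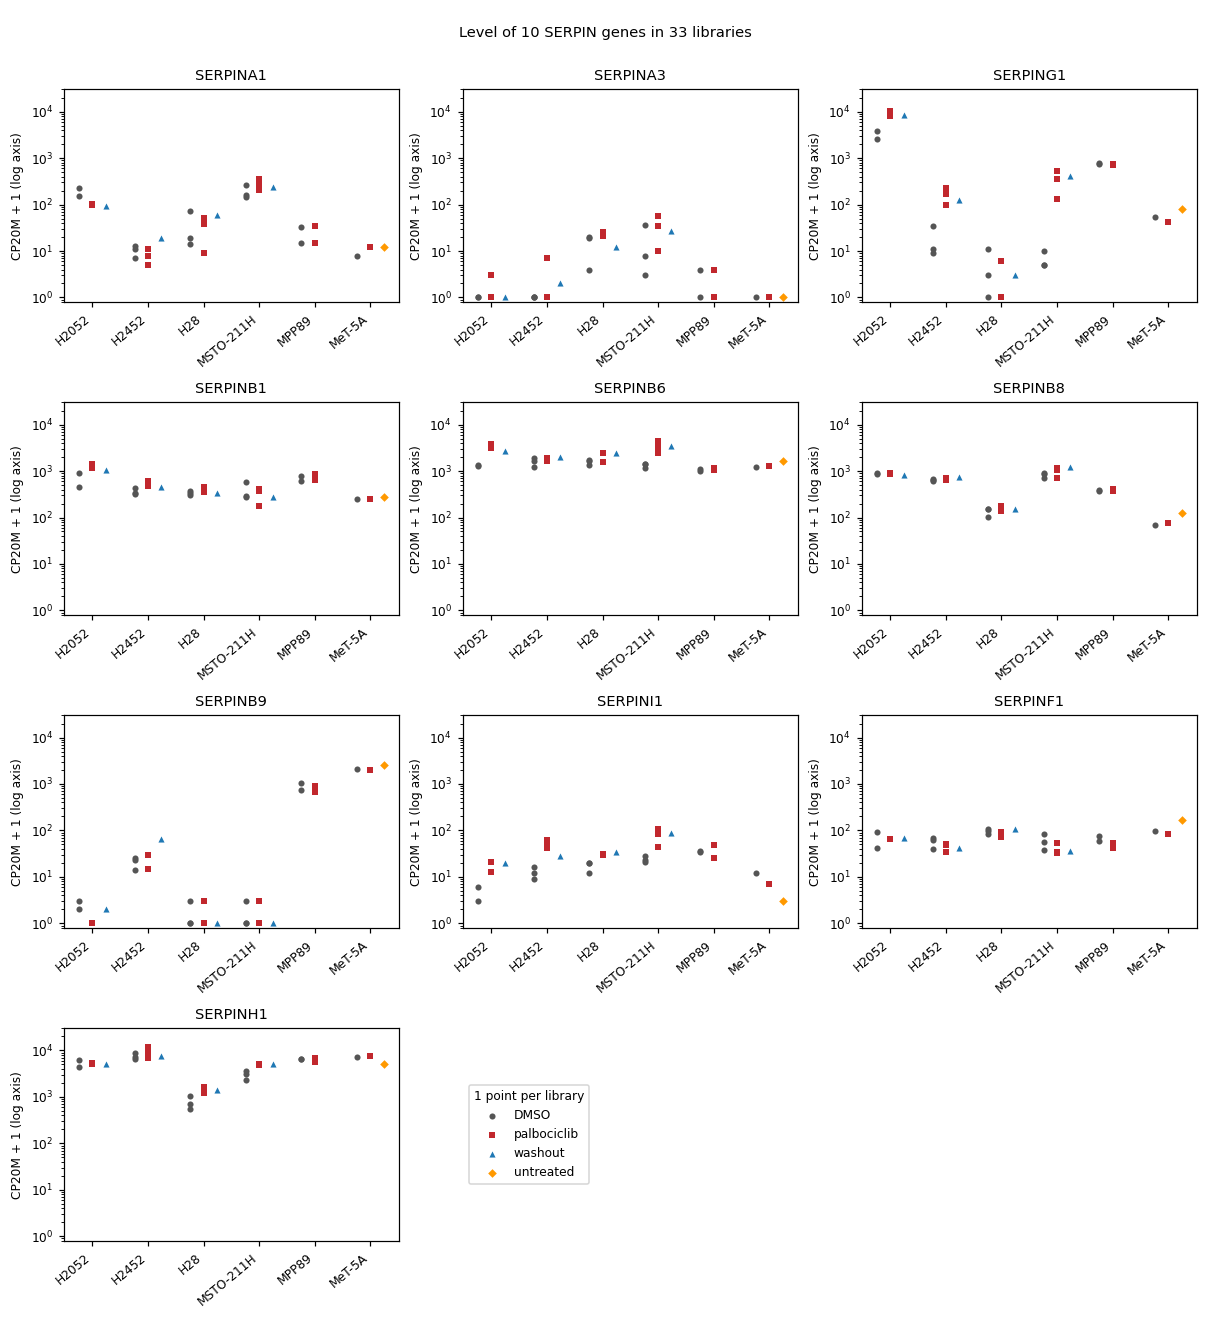
Level of the 10 genes in the 33 libraries. Each point is 1 library, the vertical axis is CP20M + 1 on a log axis, and columns are lines with DMSO, palbociclib and washout (or, for MeT-5A, untreated) libraries side by side. SERPINB9 is high in MPP89 and MeT-5A alone, where it is between 669 and 2609 CP20M, and SERPING1 spans 0 to 10153.

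SERPINB9 was the member that separated the resistant from the sensitive lines. It was at 746 and 1038 CP20M in the DMSO libraries of MPP89, and at 2122 in the DMSO and 2609 in the untreated library of MeT-5A. H2452 had 24, 13 and 22 CP20M. H2052, H28 and MSTO-211H had at most 2 CP20M, which is a few reads at most. No library of a sensitive line, whatever the treatment, exceeded 66 CP20M, and no library of a resistant line was below 669. With 2 resistant lines, which differ in origin, the class and the 2 lines cannot be told apart. In the 3 pairs of resistant lines, which express it, it was lower in palbociclib each time, at 669 and 899 CP20M in MPP89 and 2008 in MeT-5A, with a log2 fold change of -0.15 ± 0.04 (SE) that was not called (limma, unadjusted p 0.0121, FDR 0.689). Over the 11 pairs of sensitive lines, 8 of which held at most 2 CP20M in both libraries, no response could be measured.

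SERPING1 also had a wide range of levels. H2052 had 2592 and 3776 CP20M in DMSO and MPP89 had 760 and 790. MeT-5A had 53 in DMSO and 79 untreated. H2452 had 8, 34 and 10 CP20M, H28 had 0, 2 and 10, and MSTO-211H had 4, 9 and 4. H2052, MPP89 and MeT-5A therefore did not overlap each other or the rest, while H2452, MSTO-211H and H28 overlapped as neighbours in that order (DMSO F test, FDR 6.91e-09).

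SERPINH1 had its highest DMSO mean in H2452, with 6498, 9017 and 7150 CP20M, and its lowest in H28, with 546, 1045 and 708. MeT-5A (7252), MPP89 (6449 and 6596) and H2052 (4468 and 6163) lay near H2452, and MSTO-211H had 3654, 3191 and 2324. Of neighbours in the order of means, only H2452 and MeT-5A overlapped (DMSO F test, FDR 4.52e-07). MPP89, no neighbour of H2452 in that order, also overlapped it, with 6596 against 6498 CP20M. SERPINB8 differed among the lines as well (FDR 2.01e-08). H2052 and MSTO-211H, which overlapped, had means of 888 and 824 CP20M. H2452 (636), MPP89 (385), H28 (136) and MeT-5A (68) followed, with no overlap between neighbours. HMSD, a gene on the same strand that shares 11746 bases of its locus with SERPINB8, had values that correlated with it at r = 0.95 over 33 libraries, as a description. Reads of these overlapping genes may have been counted for either, so the levels of SERPINB8 are uncertain in that respect.

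SERPINB6 and SERPINF1 did not differ between lines in DMSO at the FDR threshold. SERPINB6 lay between 1011 and 1891 CP20M (FDR 0.0529), and SERPINF1 between 37 and 105 (FDR 0.238). Neither result shows that the lines are alike. SERPINB1 lay between 245 and 921 CP20M (FDR 0.0171), with MPP89 and H2052 highest, and each line overlapped its neighbour in the order except H28 and MeT-5A. SERPINA1 was highest in H2052 (154 and 228) and MSTO-211H (159, 258 and 147), which overlapped, and was at most 70 CP20M in DMSO elsewhere. SERPINI1 had 34 and 35 CP20M in MPP89 and 20 to 27 in MSTO-211H, and it was at most 19 in the other lines.

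SERPINA3 was at 0 in every DMSO library of H2052, H2452 and MeT-5A. It reached 18 and 19 CP20M in DMSO libraries of H28 and 35 in 1 of MSTO-211H. Its highest value was 55, in a palbociclib library of MSTO-211H. A second gene model (ENSG00000273259) covers the whole SERPINA3 locus on the same strand, and its values correlated with those of SERPINA3 at r = 0.99 over 33 libraries and were at most 56 CP20M, so both rows appear to hold mostly the same reads. SERPINA3 was higher in palbociclib than in DMSO in 8 of 11 pairs of sensitive lines and lower in none, and was not tested.

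The next question was which members palbociclib changed in the sensitive lines. Genes were called when the fold change was above 1.5 in either direction with an FDR under 0.05, in a limma fit with the experiment as a block. Over the 11 pairs, SERPING1, SERPINI1 and SERPINB6 rose and no member fell. These are 3 of the 9 tested members, when 5.58% of all tested genes were called higher and 9.37% lower. SERPINI1 had to be high in palbociclib to pass the filter. The rise was 4.55-fold for SERPING1, with a log2 fold change of 2.18 ± 0.47 (SE, n = 11 pairs, FDR 0.00184) and 9 of 11 pairs higher. Without MSTO-211H it was 1.40 (FDR 0.015). The 11 pairs come from 4 lines, and with line means as units SERPING1 (FDR 0.0667) and SERPINB6 (FDR 0.0514) were not called. The rise was 2.14-fold for SERPINI1 (1.10 ± 0.16, FDR 0.000139), with all 11 pairs higher. SERPINB6 rose 1.71-fold (0.77 ± 0.16, FDR 0.00172), with 10 of 11 pairs higher. All fold changes were taken from log2(CP20M + 10), and those of low genes are understated. The median of all tested genes was -0.11, and it was 0.04 with median-of-ratios and -0.01 with upper-quartile scaling. Of all tested genes, 994 were called higher and 1669 lower as deposited, but 1646 and 965 with median-of-ratios and 1372 and 1135 with upper-quartile scaling, under both of which 4 members rose and none fell. Fewer cells that express a gene and less RNA of it per cell cannot be told apart in bulk libraries.

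The other 6 tested members were not called over the 11 pairs. SERPINH1 passed the FDR but not the 1.5-fold threshold (log2 fold change 0.52 ± 0.12, FDR 0.00242, 10 of 11 pairs higher), and it passed both with median-of-ratios scaling (0.70) or upper-quartile scaling (0.64). SERPINB8 had an FDR of 0.0493 with a log2 fold change of only 0.15 ± 0.06. SERPINB1 (0.34 ± 0.15, FDR 0.0762) was higher in 8 pairs and lower in 3. SERPINF1 (-0.23 ± 0.11, FDR 0.113) was lower in 9 of 11 pairs. SERPINA1 (-0.06 ± 0.19, FDR 0.819) was higher in 5 pairs and lower in 5, and its fitted value turned to 0.07 and 0.02 with the other scalings. In the 7 pairs treated for 9 days, the same 3 members were called. In the 4 pairs treated for 10 days, SERPING1 was at 2.35 with an FDR of 0.1 and was not called, whereas the fit that adds the washout libraries of these experiments called the same value (FDR 0.0444).

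**Figure D2:**
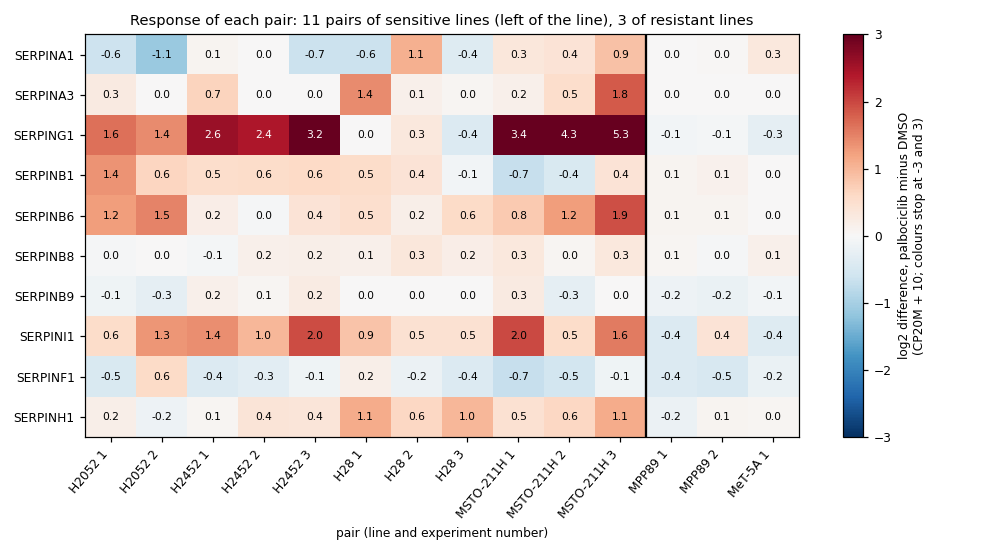
Response of the 10 genes in each pair. Each cell is the difference of log2(CP20M + 10) between the palbociclib and the DMSO library of 1 experiment, and the vertical line parts the 11 pairs of sensitive lines from the 3 pairs of resistant lines. SERPINI1 is above 0 in all 11 pairs of sensitive lines, and SERPING1 is above 2 in the 6 pairs of H2452 and MSTO-211H.

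SERPING1, the C1 inhibitor, responded in 3 of the 4 sensitive lines. In MSTO-211H it went from 4, 9 and 4 CP20M in DMSO to 134, 352 and 523 in palbociclib. In H2452 it went from 8, 34 and 10 to 99, 228 and 168, and in H2052 from 2592 and 3776 to 8151 and 10153. The DMSO and palbociclib libraries did not overlap in any of these lines. The log2 fold change was 4.29 ± 0.41 in MSTO-211H (FDR 0.0349), 2.73 ± 0.18 in H2452 (FDR 0.0123) and 1.54 ± 0.10 in H2052 (FDR 0.0359). In H28 it stayed low, at 0, 2 and 10 CP20M in DMSO and 0, 5 and 5 in palbociclib, with -0.03 ± 0.16 (FDR 0.906). The DMSO values of MSTO-211H are a few reads, so the size of its fold change depends on the pseudocount. The leukocyte gene CD14 was at 133 to 361 CP20M in DMSO and 284 to 1130 in palbociclib in H2452, and its part in this result was not tested. CD14 was at 0 to 4 CP20M in MSTO-211H, in DMSO as in palbociclib.

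The response of SERPING1 differed among the 4 sensitive lines (F test, FDR 0.000301), as did those of SERPINB6 (0.00802), SERPINH1 (0.0166) and SERPINB1 (0.0375). Among all tested genes, 37.1% differed in this way, so 4 of 9 members is near the background. SERPINB6 went from 1289 and 1373 CP20M to 3066 and 3843 in H2052, a log2 fold change of 1.36 ± 0.10 (FDR 0.0359). In MSTO-211H it went from 1402, 1390 and 1162 to 2407, 3305 and 4431 (1.31 ± 0.25, FDR 0.0445). The groups did not overlap in these lines. It was at 1679, 1891 and 1236 against 1936, 1841 and 1652 in H2452 (0.19 ± 0.10), and at 1735, 1340 and 1659 against 2459, 1527 and 2485 in H28 (0.42 ± 0.10), where the groups overlapped. Over the lines without MSTO-211H, the log2 fold change of SERPINB6 was 0.57, under the 1.5-fold threshold.

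SERPINH1, the collagen chaperone, rose in H28, from 546, 1045 and 708 CP20M to 1199, 1607 and 1433, without overlap (0.91 ± 0.12, FDR 0.0295). In MSTO-211H it was at 3654, 3191 and 2324 in DMSO and 5058, 4891 and 5035 in palbociclib, also without overlap, but missed the FDR threshold (0.73 ± 0.16, FDR 0.0522). In H2452 the libraries overlapped, at 6498, 9017 and 7150 against 6760, 11725 and 9135 (0.26 ± 0.09). In H2052 they overlapped as well, at 4468 and 6163 against 5027 and 5504 (0.00 ± 0.12). H28 and MSTO-211H, with the lowest DMSO means, thus had the largest log2 differences. H2052, however, had a lower DMSO mean than H2452 and a smaller difference. The DMSO value enters both the level and the difference, and their relation was not tested.

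SERPINI1, or neuroserpin, was low throughout and higher in palbociclib in every pair of sensitive lines. In H2452 it was at 11, 15 and 8 CP20M in DMSO and 45, 40 and 60 in palbociclib (1.45 ± 0.22, FDR 0.0215). In H28 it was at 11, 19 and 19 against 28, 30 and 30 (0.59 ± 0.13, FDR 0.0479). In MSTO-211H it was at 20, 27 and 22 against 109, 44 and 84 (1.36 ± 0.33, FDR 0.0637), and in H2052 at 5 and 2 against 12 and 20 (0.94 ± 0.23, FDR 0.07). The DMSO and palbociclib libraries did not overlap in any of the 4 lines. In GENCODE 44, the start site of PDCD10 lies 304 bases from that of SERPINI1, on the other strand. The SERPINI1 window printed above is set on a different start site, from RefSeq. PDCD10 had a log2 fold change of -0.33 ± 0.07 over the 11 pairs (FDR 0.00134), under the 1.5-fold threshold. It was chosen after the data were seen.

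SERPINB1 was called in no line. In H2052 it was at 443 and 921 CP20M in DMSO and 1148 and 1438 in palbociclib (1.00 ± 0.22, FDR 0.0597). In H2452 it was at 335, 421 and 323 against 485, 622 and 491, which did not overlap (0.55 ± 0.06, FDR 0.0164), just under the 1.5-fold threshold. In MSTO-211H it was at 295, 569 and 279 against 180, 415 and 371 (-0.24 ± 0.26, FDR 0.517), and H28 lay between them (0.29 ± 0.16). SERPINA1 was called in no line either, with 154 and 228 CP20M in DMSO and 96 and 100 in palbociclib in H2052 (-0.87 ± 0.21, FDR 0.0669), and 159, 258 and 147 against 203, 349 and 279 in MSTO-211H (0.55 ± 0.18, FDR 0.105). The response of SERPINA1 was not shown to differ among the lines (F test, FDR 0.111).

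SERPINB8, SERPINB9 and SERPINF1 also had no call in a single line. SERPINB8 was at 853, 699 and 919 CP20M in DMSO and 1072, 723 and 1155 in palbociclib in MSTO-211H (0.23 ± 0.10, FDR 0.168), and at 901 and 875 against 872 and 889 in H2052 (-0.01 ± 0.08), with overlap in both lines. SERPINF1 was between 31 and 170 CP20M in all 33 libraries. It was at 56, 82 and 37 in DMSO and 31, 53 and 33 in palbociclib in MSTO-211H (-0.45 ± 0.18, FDR 0.143), and at 58 and 76 against 41 and 52 in MPP89 (-0.44 ± 0.12, FDR 0.837). SERPINB9 had too few reads in H2052, H28 and MSTO-211H for a change to be seen, and in H2452 it was at 24, 13 and 22 against 28, 14 and 28.

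By line, 2 of the 9 tested members rose in each of H2052, H2452, H28 and MSTO-211H, and none fell. The background of higher genes was 4.67%, 6.04%, 5.89% and 5.9% in these lines, and that of lower genes was 13%, 10.8%, 7.34% and 7.94%. Calls within a line were fragile. Without any 1 of its pairs, H28 and MSTO-211H had no member called, and H2452 had 0 or 1.

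In MPP89 and over the 3 pairs of resistant lines, no member was called in the limma fits, and neither was any other gene (0% of those tested). Of the 9 members, 2 had an unadjusted p under 0.05 in each fit, SERPINB9 and SERPINF1, both lower in palbociclib. Of all tested genes, 5.16% had such a p in MPP89 and 7.07% over the 3 pairs. SERPING1 was at 760 and 790 CP20M in DMSO and 720 and 753 in palbociclib in MPP89, and at 53 and 42 in MeT-5A. SERPINI1 was at 35 and 34 against 24 and 48 in MPP89, and at 11 and 6 in MeT-5A. The difference between the responses of sensitive and resistant lines was called for SERPINI1 alone (1.23 ± 0.35 on the log2 scale, FDR 0.0358), when 6.75% of all tested genes were. For SERPING1 it was 2.33 ± 0.94 (FDR 0.123), for SERPINB6 0.72 ± 0.33 (FDR 0.172) and for SERPINH1 0.54 ± 0.23 (FDR 0.15). SERPINI1 passed the filter only through a palbociclib library of a sensitive line. Its call was lost without the filter (FDR 0.0806), with a pseudocount of 50 (0.56, FDR 0.0829), without replicate 3 of MSTO-211H, without either pair of MPP89 or without the pair of MeT-5A.

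**Figure D3:**
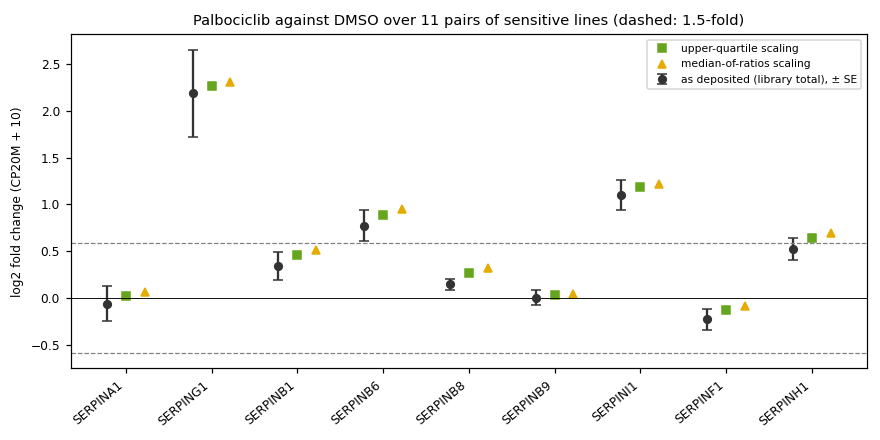
Log2 fold change of the 9 tested members between palbociclib and DMSO over the 11 pairs of sensitive lines. Circles with bars are fits ± SE on the deposited scaling, squares and triangles are fits after upper-quartile and median-of-ratios scaling, and dashed lines mark 1.5-fold. SERPING1, SERPINI1 and SERPINB6 are above the line under all 3 scalings, while SERPINH1 moves from 0.52 to 0.70 and crosses it.

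The washout libraries ask whether a change lasted after the drug was removed. No member differed between washout and palbociclib at the thresholds of the call (limma fit of 12 libraries with the line as a block, and none at an unadjusted p under 0.05), when 1.4% of all tested genes did. The log2 differences ranged from -0.34 ± 0.78 for SERPING1 to 0.22 ± 0.24 for SERPINB9. The error of that fit also holds the differences between lines in the response to palbociclib. In a fit of the 8 palbociclib and washout libraries alone, added after the data were seen, no member was called either, but SERPING1 was at -0.34 ± 0.08 (unadjusted p 0.00563, FDR 0.086) and SERPINB1 at -0.24 ± 0.10 (unadjusted p 0.0416, FDR 0.198). Both were lower after washout than in palbociclib in 4 of 4 lines, and SERPINF1 was higher in 4 of 4 (0.20 ± 0.13, FDR 0.383). Against DMSO, SERPINI1 (1.12 ± 0.24, FDR 0.0204) and SERPINB6 (0.95 ± 0.22, FDR 0.0271) were still higher, with 2.81% of all tested genes called higher and 2.95% lower. Washout and palbociclib share these DMSO libraries, and in the same fit the palbociclib differences were 1.32 ± 0.24 for SERPINI1, 1.10 ± 0.22 for SERPINB6 and 2.35 ± 0.78 for SERPING1. In a fit of the 8 DMSO and washout libraries alone, SERPINI1 (FDR 0.0546) and SERPINB6 (FDR 0.054) were not called.

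In the washout experiment of H2052, SERPINB6 was at 1373 CP20M in DMSO, 3843 in palbociclib and 2703 after washout. It was at 1236, 1652 and 2031 in H2452, at 1659, 2485 and 2391 in H28 and at 1162, 4431 and 3532 in MSTO-211H. It was thus above DMSO after washout in all 4 lines. SERPINI1 was at 2, 20 and 19 CP20M in H2052, at 8, 60 and 27 in H2452, at 19, 30 and 33 in H28 and at 22, 84 and 86 in MSTO-211H. It too was above DMSO in all 4 lines, with the largest drop in H2452.

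SERPING1 was at 3776, 10153 and 8482 CP20M in H2052, at 10, 168 and 126 in H2452, at 10, 5 and 2 in H28 and at 4, 523 and 402 in MSTO-211H. Its washout value lay above DMSO in 3 lines and below palbociclib in all 4. The log2 difference from DMSO was 2.02 ± 0.78 (FDR 0.121), and the spread between lines was large. SERPINH1 was at 6163, 5504 and 5205 CP20M in H2052, at 7150, 9135 and 7539 in H2452, at 708, 1433 and 1392 in H28 and at 2324, 5035 and 5220 in MSTO-211H (0.49 ± 0.22, FDR 0.17). SERPINB9 in H2452 was at 22, 28 and 66 CP20M, with 1 library for each value.

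**Figure D4:**
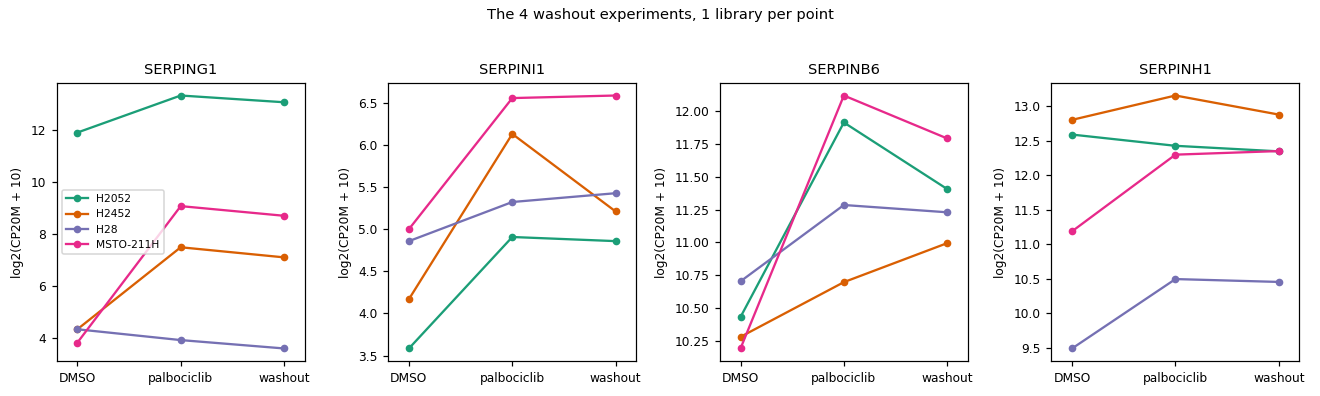
Level of SERPING1, SERPINI1, SERPINB6 and SERPINH1 in the 4 washout experiments. Each line joins the DMSO, palbociclib and washout library of 1 sensitive line, on the log2(CP20M + 10) scale, with a separate vertical range in each panel. SERPINI1 and SERPINB6 stay above DMSO in all 4 lines, and SERPING1 in all but H28.

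Among the 25 other SERPIN genes, 9 were tested, and 5 rose and none fell over the 11 pairs, with a median log2 fold change of 0.64 against -0.11 over all genes. Of all tested genes, 5.58% were called higher and 9.37% lower. By line, none of the 9 was called in H2052 and 1 was higher in H28. In H2452, 3 were higher and 1 lower, and in MSTO-211H 3 were higher. The background by line was 4.67% to 6.04% of all tested genes for higher and 7.34% to 13% for lower. Over the 11 pairs, SERPINE2, or protease nexin-1, rose most (1.65 ± 0.14, FDR 1.92e-06). Among the others that rose, SERPINB2 was at 0.82 ± 0.25 (FDR 0.0154), SERPINB10 at 0.79 ± 0.25 (FDR 0.0182) and SERPINB7 at 0.64 ± 0.18 (FDR 0.0106). SERPINB2 and SERPINB10 are neighbours on the same strand of chromosome 18. SERPIND1 (0.57), SERPINB5 (0.19), SERPINF2 (0.15) and SERPINE3 (-0.37) were not called. After washout, SERPINE2, SERPINB2 and SERPINB10 remained called above DMSO, when 2.81% of all tested genes were.

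Among 21 genes of proteases that the members inhibit, 8 were tested, 2 rose and none fell over the 11 pairs, with a median of 0.09. By line, 3 were called higher and 1 lower in H2052 and again in H2452. In H28, 2 were higher, in MSTO-211H 1 was, and none was lower in either line. Of all tested genes, 5.58% were called higher and 9.37% lower over the 11 pairs. By line, 4.67% to 6.04% were called higher and 7.34% to 13% lower. Over the 11 pairs, PLAT, the target of neuroserpin, rose (2.36 ± 0.49, FDR 0.00149), and so did C1S, a target of the C1 inhibitor (1.40 ± 0.21, FDR 0.000167). C1R, the partner of C1S, was at 0.28 ± 0.35 (FDR 0.531), but the lines went in opposite directions. In palbociclib it was higher without overlap in H2452 (1189 to 2930 CP20M in DMSO, 3469 to 5796 in palbociclib), H2052 (900 to 1363, 1473 to 1607) and H28 (38 to 52, 60 to 88). In MSTO-211H the groups overlapped, at 246 to 933 CP20M in DMSO and 78 to 571 in palbociclib, with means of 622 and 313. In H28, where SERPING1 stayed at or below 10 CP20M, C1S was at 95 to 111 CP20M in DMSO and at 182 to 555 in palbociclib (1.72 ± 0.36, FDR 0.0479). In MSTO-211H, C1S was at 174 to 765 in DMSO and 544 to 1331 in palbociclib, and was not called (1.08 ± 0.61). FURIN, the target of SERPINB8, was at -0.04 ± 0.11 over the 11 pairs, but the lines went in opposite directions. It was at 2002 to 2182 CP20M in DMSO and 3308 to 3441 in palbociclib in H2052. In H2452 it was at 2778 to 3325 against 2213 to 2586, and in H28 and MSTO-211H the groups overlapped. PLAT stood at 11643 to 51075 CP20M in palbociclib in MSTO-211H, against 345 to 2946 in DMSO. C1S and PLAT were still called above DMSO after washout, when 2.81% of all tested genes were.

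Of all tested genes, 5.58% were called higher and 9.37% lower over the 11 pairs, which is the background of the lists that follow. The 26 genes of collagen folding and modification were all tested, 5 rose and none fell, with a median of 0.25. They were the prolyl hydroxylase subunits P4HA2 (0.95 ± 0.16) and P4HA1 (0.76 ± 0.14), the lysyl hydroxylase PLOD1 (0.69 ± 0.15), and the prolyl isomerases FKBP14 (0.88 ± 0.14) and FKBP10 (0.70 ± 0.10), with FDR values of 0.00233 or less. Of 17 acute phase genes, 8 were tested, 3 rose and none fell, with a median of 0.67. The 3 that rose were C3, the central complement component (2.71 ± 0.34, FDR 3.97e-05), SAA2 (1.42 ± 0.29) and SAA1 (1.15 ± 0.30). SAA2 passed the filter only through palbociclib libraries of H2452 and MSTO-211H. It was at most at 63 CP20M in DMSO and 75 after washout, so it had to be high in palbociclib to be tested. SERPINA1, an acute phase gene too, was not among the genes that rose. Of 11 receptors of serpin complexes and of PEDF, LRP1 (1.27 ± 0.15) and PLXDC2 (0.91 ± 0.17) rose and none fell, with a median of 0.07. These medians and counts describe the lists and were not tested against other genes.

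The 2 genes whose log2(CP20M + 10) over the 33 libraries was most like that of each member are given as a description, as libraries of a line share its identity. They were MFAP5 and KCNJ12 for SERPING1 (r = 0.96 and 0.94), SPARC and FBLIM1 for SERPINH1 (0.96 and 0.96), PEG3 and ACTC1 for SERPINB9 (0.97 and 0.97) and MRGPRF and EMP1 for SERPINB8 (0.96 and 0.96). SERPINA1 was nearest to LINC01322 and AC006453.2 (0.94 and 0.91), SERPINB1 to GALNT15 and CAMK1G (0.85 and 0.84), and SERPINF1 to CEP95 and TOP3B (0.86 and 0.82). SERPINB6 was nearest to AP1S3 and IGFBP3 (0.82 and 0.80), SERPINI1 to ETV5 and NOMO2 (0.82 and 0.81), and SERPINA3 to ABHD14B and PSPHP1 (0.85 and 0.84).

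SERPINB1, SERPINB9 and SERPINB6 lie close together on the minus strand of chromosome 6 in GRCh38 (GENCODE 44). SERPINB1 runs from 2832332 to 2841959, SERPINB9 from 2887270 to 2903309 and SERPINB6 from 2948159 to 2972165. Their patterns over lines differed, with SERPINB9 at 0 to 2 CP20M in H28 while SERPINB1 was at 302 to 444 and SERPINB6 at 1340 to 2485 in the DMSO and palbociclib libraries of that line. SERPINA1 (94376747 to 94390693) and SERPINA3 (94612384 to 94624055) lie on chromosome 14, and SERPING1 and SERPINH1 both lie on chromosome 11, far apart.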

How the data were processed

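RNA-seq values of 33 libraries of 6 cell lines were analysed. The authors trimmed paired-end reads with Trimmomatic 0.36, mapped them with STAR 2.5.3 to GRCh38 with the Ensembl annotation, counted them with HTSeq 0.9.1 and called DE genes with DESeq2. The deposited values are a score, counts per 20000000 reads rounded up to whole numbers, and were not treated as counts. The strand setting of the counting is not given in the sources used here. Depth was read from whole numbers that a column skips. It was 12770000 to 19830000 reads in 23 libraries, and 10 libraries skip none.

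Genes at 100 CP20M or more in at least 1 library (17803) were fitted as log2(CP20M + 10) with limma 3.58.1 (trend) in R 4.3.3. The experiment was a block, since the study paired samples by experiment. Deviations of same-numbered libraries correlated with r from 0.18 to 0.78. In the paired fits, p-values measure the spread of the response between experiments, where experiments of 1 line count as separate units. The washout fits had the line as a block, and their p-values measure the spread between lines, with 1 experiment each. The DMSO F test had no block, and its p-values measure the spread between libraries of a line. The functions were tested on simulated data. Alternatives were no block, pseudocounts of 1 and 50, other filters and scalings, no trend, a single fit, line means and leaving out pairs or lines. Fits of 9-day and 10-day pairs and of only the 8 libraries of a washout comparison were added after seeing the data. Members and lists were chosen with earlier results of these data known. Genes named are all members, tested SERPIN genes, at most 6 called genes per list and the 2 most alike per member, except 1 listed gene that is not reported here. The neighbours PDCD10 and HMSD, the gene model over SERPINA3, CD14, C1R and FURIN were named after their values were seen. Positions are from GENCODE 44 and promoters from RefSeq.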

Additional observations from a re-analysis of the deposited data

Results flagged for a closer look

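The response to palbociclib differed among the 4 sensitive lines for SERPING1 (limma F test, FDR 0.000301), SERPINB6 (FDR 0.00802), SERPINH1 (FDR 0.0166) and SERPINB1 (FDR 0.0375). These 4 of 9 tested members are near the background, as 37.1% of all tested genes differed in this way. SERPING1 had a log2 fold change of -0.03 in H28 and 4.29 in MSTO-211H. SERPINB6 had 0.19 in H2452 and 1.36 in H2052. SERPINH1 had 0.00 in H2052 and 0.91 in H28, and SERPINB1 had -0.24 in MSTO-211H and 1.00 in H2052. The response of SERPINI1 differed between sensitive and resistant lines, by 1.23 on the log2 scale (FDR 0.0358), when 6.75% of all tested genes were called. It was higher in palbociclib in 11 of 11 sensitive pairs and 1 of 3 resistant pairs, the latter from MPP89 and MeT-5A alone. SERPINI1 passed the filter only through a palbociclib library of a sensitive line, and the call was lost without the filter. No group had more than 3 libraries, so single libraries far from the others were not searched for.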

How the results depend on the processing

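No result changed direction past the threshold under any alternative. Over the 11 pairs, 3 members were called higher. Leaving out a pair or a line gave 2 to 4, and with line means as units 1 was left, with an FDR of 0.0667 for SERPING1 and 0.0514 for SERPINB6. SERPINI1 fell under the 1.5-fold threshold with a pseudocount of 50 (0.53). SERPINH1 passed it without replicate 2 of H2052 (0.59), without H2052 (0.64) and without H2452 (0.62).

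Within lines, 2 members were called higher in each sensitive line. In H2052 this became 1 without a filter, 0 without trend and 4 in a single fit of all lines, and 1 member, SERPINA1, was called lower with the filter within the fit. In H2452 it became 1 with that filter and 0 to 1 without a pair. In H28 it became 0 without the replicate block, 1 with either pseudocount, without a filter, with the filter within the fit, without trend and in a single fit, and 0 without any pair. In MSTO-211H it became 4 without the block, with the filter within the fit and in a single fit, 1 with a pseudocount of 1, without a filter and without trend, and 0 without any pair. H2052 and MPP89 have 2 pairs, and leaving out 1 leaves no spread to fit with the block.

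The 1 member that differed between classes became 0 with a pseudocount of 50 and without a filter, and 0 to 1 without a pair. The 4 members that differed among lines became 2 without the block, and 3 to 4 without a pair. The 2 members above DMSO after washout became 0 without the block, 1 with a pseudocount of 50, without a filter and with the filter within the fit, 0 in a fit of the 8 libraries compared only, and 0 to 1 without a line. The replicate block changed no other count of members by over 1.5 times. The cause of these changes was not tested. Values of a few CP20M rest on a few reads and limit SERPINA3, SERPINI1 and the DMSO level of SERPING1.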
